A study of Mus musculus with 6 samples.

Results

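The genes described here are 5 cargo receptors of autophagy (Sqstm1, Nbr1, Optn, Tax1bp1 and Calcoco1) and 5 genes of the ATG8 family (Map1lc3a, Map1lc3b, Gabarap, Gabarapl1 and Gabarapl2). They were taken by symbol from the deposited table, which held all 10 among its 23420 genes. RNA was sequenced from eosinophils grown from wild-type mouse bone marrow and exposed for 3 hours to IL-33, a cytokine, at 2.5 ng/mL (3 libraries) or given the vehicle, phosphate-buffered saline (PBS, 3 libraries). All 6 cultures shared the same history: stem cell factor and FLT3 ligand at 100 ng/mL each, then IL-5 at 20 ng/mL, with use on day 14 after dead cells had been taken out. Nothing in the labels ties the 3 libraries of a group to different mice or dishes. The p-values therefore reflect library-to-library spread alone, which may be technical.

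Autophagy is the process by which a cell wraps part of its cytoplasm in a double membrane, the autophagosome, and delivers it to the lysosome. ATG8 proteins (the LC3 and GABARAP subfamilies) are coupled to lipid on that growing membrane, and cargo receptors bind an ATG8 protein with one site and the cargo, often tagged with ubiquitin, with another. The receptor p62, encoded by Sqstm1, is itself degraded with its cargo and also serves as a scaffold in signalling that leads to NF-kB and NRF2. IL-33 is an alarmin released by damaged tissue, and eosinophils carry its receptor.

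Rn45s, the ribosomal RNA precursor gene, took 24.3% to 59.6% of the recovered reads in IL-33 libraries and 13.7% to 24.8% in PBS libraries. This left 4229504 to 7129435 reads for other genes in IL-33 libraries and 6592044 to 7091546 in PBS libraries. IL-33 replicate 1, with an Rn45s share of 24.3%, stood apart from IL-33 replicates 2 and 3, with 59.6% and 54.8%, so calls among the 10 genes that change without it, and the counts over the other autophagy genes, are also given without it. Of 9 eosinophil markers, 8 were lower after IL-33 (adjusted p under 0.05), but Epx, Prg2, Ccr3, Il5ra and Siglecf (listed as Siglec5) were detected in every library. The summed normalized count of the 9 was 13245 to 24779 in IL-33 libraries and 39420 to 51805 in PBS libraries. Of 11 neutrophil markers in the table, 10 were tested, with 0 higher and 4 lower. Their sums were 2307 to 3029 in IL-33 libraries and 2912 to 3588 in PBS libraries. Among 10 macrophage markers, 4 were tested, and Csf1r and Cd14 were higher. The sums of the 10 were 4920 to 5795 in IL-33 libraries and 1549 to 1903 in PBS libraries. Marco was at 0 in every library, and C1qa, C1qb, C1qc, Mertk and Ms4a7 stayed at or below 13.6. Of 10 mast cell and basophil markers, 6 were tested, with 0 higher and 2 lower. The sums of the 10 were 131 to 356 in IL-33 libraries and 187 to 476 in PBS libraries. Over all tested genes, 17.4% were higher and 14.4% lower. The part of these cell types and of the Rn45s share in the results below was not tested. In bulk RNA, fewer cells of a type and less RNA per cell cannot be told apart.

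Sequences upstream of the start sites are shown for the 3 genes that rose at least 2-fold (Sqstm1, Optn and Gabarapl1). Each is the 250 bases before the RefSeq transcript start (GRCm38.p6), printed in the direction of the gene. Capitals mark matches on either strand to a loose core of the NF-kB site, GGG and CC with 5 bases of any kind between them. The positions are chr11:50210821-50211070 on the minus strand for Sqstm1, chr2:5064118-5064367 on the minus strand for Optn and chr6:129532942-129533191 on the plus strand for Gabarapl1.
Sqstm1: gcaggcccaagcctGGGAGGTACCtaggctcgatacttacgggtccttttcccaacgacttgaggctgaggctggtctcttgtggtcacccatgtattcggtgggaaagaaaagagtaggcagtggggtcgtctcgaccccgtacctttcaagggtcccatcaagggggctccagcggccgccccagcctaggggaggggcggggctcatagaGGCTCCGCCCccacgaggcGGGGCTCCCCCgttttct
Optn: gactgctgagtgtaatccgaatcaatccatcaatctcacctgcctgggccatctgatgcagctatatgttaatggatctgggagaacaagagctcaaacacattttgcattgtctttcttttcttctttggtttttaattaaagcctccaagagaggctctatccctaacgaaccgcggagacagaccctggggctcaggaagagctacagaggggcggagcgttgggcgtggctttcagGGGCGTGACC
Gabarapl1: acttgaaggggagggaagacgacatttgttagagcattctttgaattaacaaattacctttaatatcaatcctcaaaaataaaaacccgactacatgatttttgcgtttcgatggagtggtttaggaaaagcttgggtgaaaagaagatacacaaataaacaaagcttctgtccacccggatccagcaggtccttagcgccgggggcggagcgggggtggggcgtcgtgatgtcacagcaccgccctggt
The Sqstm1 window held 4 matches, a pair of which overlap, the Optn window 1 and the Gabarapl1 window 0. The core is common: 45.8% of all 32851 RefSeq windows of this length held it, and so did 5 of the 11 windows of the genes described here that were matched by symbol (9 genes, without Map1lc3a). The antioxidant response element core TGACNNNGC was found in 1 of the 11 windows, at a Tax1bp1 start, against 10.2% of all windows. The letters CACGTG, the E-box in the element bound by TFEB, and TGANTCA, the AP-1 site, were in 0 of the 11 windows, against 6.02% and 6.75% of all windows. A match describes the letters and is not a binding site.

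IL-33 split the 10 genes. Sqstm1, Optn, Gabarapl1 and Gabarap rose, Nbr1 fell, and Tax1bp1, Calcoco1, Map1lc3a, Map1lc3b and Gabarapl2 did not pass the test. Differences (IL-33 minus PBS) were tested with limma on log2(normalized count + 1), with Benjamini-Hochberg adjustment over the 10544 genes that reached a normalized count of 10 in at least 3 libraries. All 10 genes entered it. With 4 genes called higher and 1 lower, the calls stand beside a background of 31.9% of all tested genes called, 17.4% higher and 14.4% lower. The libraries of both groups separated without overlap in 5 of the 10 (IL-33 above in 4, below in 1), against 50.2% of all tested genes (25.5% above, 24.7% below). The median log2 fold change was −0.01 over the 10 genes and −0.03 over all tested genes.

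**Figure D1:**
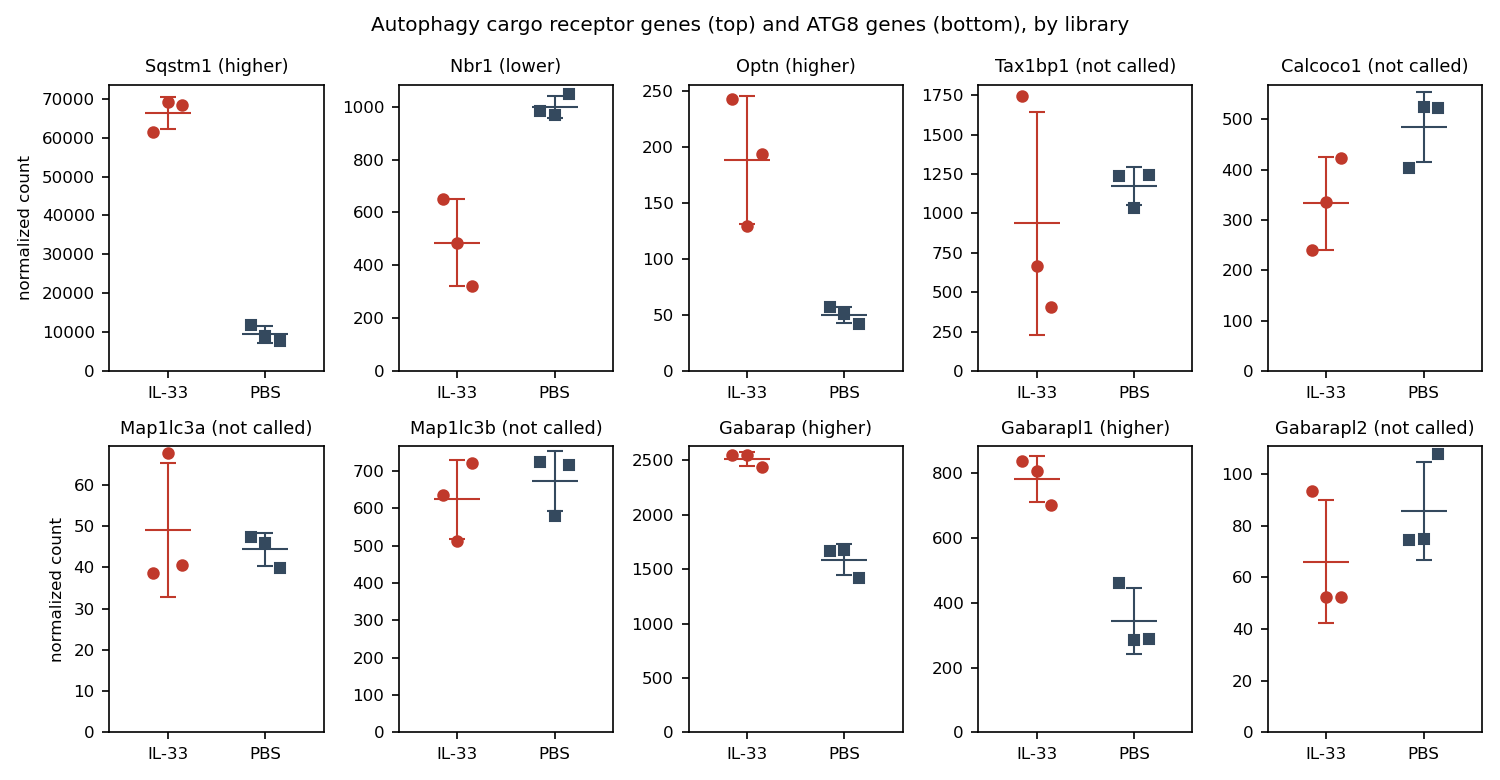
Normalized count (linear axis from 0) of each gene in each library, IL-33 at the left (circles) and PBS at the right (squares); points are libraries, the horizontal line is the mean and the bars are the SD (n = 3). Sqstm1, Optn, Gabarap and Gabarapl1 lie higher in every IL-33 library than in any PBS library, Nbr1 lies lower, and the other groups overlap.

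Sqstm1, which encodes p62, the receptor for ubiquitin-tagged aggregates and organelles, showed the largest change of the 10 genes. It lies on chromosome 11, 50199366 to 50210827, minus strand (GRCm38). Its normalized counts were 61488, 69070 and 68400 in IL-33 replicates 1, 2 and 3, against 11855, 8858 and 7619 in PBS replicates 1, 2 and 3. Every IL-33 library was above every PBS library, and the means were 66319 ± 4197 after IL-33 and 9444 ± 2178 in PBS (SD, n = 3 each), a ratio of 7.02. The log2 fold change was 2.83 (SE 0.20, 95% interval 2.39 to 3.28, limma adjusted p = 0.000105). It was rank 100 from the top among 10544 tested genes. The call held in all 20 alternative fits, with log2 fold changes of 1.79 to 3.01.

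Sqstm1 was already abundant before IL-33. It took 0.959%, 1.03% and 0.954% of the reads outside Rn45s in IL-33 replicates 1, 2 and 3, against 0.232%, 0.177% and 0.154% in PBS replicates 1, 2 and 3. The widest 95% Wilson interval of these shares was 1.02% to 1.04%, in IL-33 replicate 2, and covers counting error only. Ranked per exonic kilobase among the 19309 annotated protein-coding genes of the table, Sqstm1 was rank 2 in each IL-33 library and 14, 17 and 21 in PBS replicates 1, 2 and 3. Of its exonic bases, 17.3% overlap Mrnip, a gene on the opposite strand. Mrnip, listed as 3010026O09Rik, averaged 732 ± 171 after IL-33 and 182 ± 14.6 in PBS (log2 fold change 1.98, adjusted p = 0.000701), far below Sqstm1. How the counting treated strand is not given in the sources used here, so reads of the overlap may be counted for either gene.

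Optn, which encodes optineurin, a receptor for damaged mitochondria and bacteria that also binds ubiquitin chains in TNF signalling, was the other receptor that rose. It lies on chromosome 2, 5020642 to 5064051, minus strand. Its normalized counts were 243, 129 and 193 in IL-33 replicates 1, 2 and 3, against 56.7, 50.9 and 41.9 in PBS replicates 1, 2 and 3. The groups did not overlap. The means were 188 ± 56.9 after IL-33 and 49.9 ± 7.44 in PBS (SD, n = 3 each), a log2 fold change of 1.86 (SE 0.27, 95% interval 1.23 to 2.49, adjusted p = 0.00272). It remained called without any 1 library. When libraries were scaled to equal totals, Rn45s included, it was not called (0.83, adjusted p = 0.143). These values rest on 60 to 270 reads per library.

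Nbr1, which encodes a receptor related to p62 that takes part in clearing aggregates and peroxisomes, was the only one of the 10 that fell. It lies on chromosome 11, 101552149 to 101581951, plus strand. Its normalized counts were 652, 483 and 322 in IL-33 replicates 1, 2 and 3, against 983, 968 and 1048 in PBS replicates 1, 2 and 3. Every IL-33 library was below every PBS library, and IL-33 replicate 1 was the nearest to them. The means were 486 ± 165 after IL-33 and 999 ± 42.4 in PBS (SD, n = 3 each), a log2 fold change of −1.10 (SE 0.25, 95% interval −1.67 to −0.52, adjusted p = 0.0146). The call was lost without IL-33 replicate 2 (−1.12, adjusted p = 0.0539), PBS replicate 1 (−1.11, 0.0521), PBS replicate 2 (−1.12, 0.0596) or PBS replicate 3 (−1.06, 0.0733). It was also lost with the Rn45s share as a covariate, at −0.62 (adjusted p = 0.197).

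The ratio of Sqstm1 to Nbr1 within a library does not depend on how libraries were scaled. It was 94.3, 143 and 212 in IL-33 replicates 1, 2 and 3, against 12.1, 9.15 and 7.27 in PBS replicates 1, 2 and 3. On the log2 scale the mean rose by 3.93, which is 15.3-fold. The groups did not overlap, and the exact two-sided permutation test gave p = 0.1, the smallest that 3 against 3 libraries allow (adjusted p = 0.15 over the 3 ratios tested).

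Tax1bp1 and Calcoco1 did not pass the test, and for Tax1bp1 the IL-33 libraries disagreed. Tax1bp1 encodes a receptor that also serves as an adaptor of the A20 deubiquitinase. Its normalized counts were 1742, 663 and 408 in IL-33 replicates 1, 2 and 3, against 1238, 1032 and 1246 in PBS replicates 1, 2 and 3. IL-33 replicate 1 was above every PBS library and IL-33 replicates 2 and 3 were below. The means were 938 ± 708 after IL-33 and 1172 ± 121 in PBS (SD, n = 3 each; log2 fold change −0.58, SE 0.45, 95% interval −1.62 to 0.45, adjusted p = 0.338). Without IL-33 replicate 1 it was lower and called (−1.16, SE 0.20, adjusted p = 0.000463). With IL-33 replicate 1 alone against PBS it was higher (0.58, adjusted p = 0.0132), in a comparison with no spread among IL-33 libraries. With the Rn45s share as a covariate it was 0.57 (adjusted p = 0.389).

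Calcoco1, which encodes a receptor that acts in the turnover of endoplasmic reticulum and Golgi, had normalized counts of 240, 335 and 424 in IL-33 replicates 1, 2 and 3, against 404, 525 and 523 in PBS replicates 1, 2 and 3. Only IL-33 replicate 3 reached the PBS range, above PBS replicate 1. The log2 fold change was −0.57 (SE 0.24, 95% interval −1.12 to −0.02, adjusted p = 0.102). It passed the threshold without IL-33 replicate 3 (−0.76, adjusted p = 0.041), and under 3 other scalings and with IL-33 replicate 1 alone, at −0.75 to −1.61.

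Among the 5 ATG8 genes, Gabarapl1 and Gabarap rose, and Gabarapl2, Map1lc3a and Map1lc3b did not pass the test. Gabarapl1 (chromosome 6, 129533160 to 129542346, plus strand) had normalized counts of 837, 807 and 702 in IL-33 replicates 1, 2 and 3, against 461, 284 and 288 in PBS replicates 1, 2 and 3. All IL-33 libraries lay above PBS replicate 1, the highest of the PBS libraries. The means were 782 ± 71.2 after IL-33 and 345 ± 101 in PBS (SD, n = 3 each), a log2 fold change of 1.21 (SE 0.22, 95% interval 0.70 to 1.73, adjusted p = 0.0067). The call held without any 1 library and was lost when libraries were scaled to equal totals, at 0.17 (adjusted p = 0.692). Of its exonic bases, 28.3% overlap 1700101I11Rik on the opposite strand, which was listed at 0 in the IL-33 libraries and at 2.10 or less in the PBS libraries.

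Gabarap (chromosome 11, 69991143 to 69994951, plus strand) had 2546, 2547 and 2441 in IL-33 replicates 1, 2 and 3, against 1662, 1679 and 1419 in PBS replicates 1, 2 and 3, as normalized counts. The groups did not overlap and the IL-33 libraries lay close together. The means were 2511 ± 61.2 after IL-33 and 1586 ± 145 in PBS (SD, n = 3 each), a log2 fold change of 0.67 (SE 0.15, 95% interval 0.33 to 1.00, adjusted p = 0.0131), turning to −0.37 when libraries were scaled to equal totals (adjusted p = 0.327). This call was lost in more alternatives than those of Sqstm1, Optn and Gabarapl1. Leaving out IL-33 replicate 2 gave 0.66 (adjusted p = 0.0557), leaving out PBS replicate 2 gave 0.71 (0.0589) and leaving out PBS replicate 3 gave 0.59 (0.0852). It was lost as well under quantile normalization (0.20) equal totals without Rn45s (0.24) and the Rn45s share as a covariate (0.61, adjusted p = 0.0849).

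The ratio of Gabarapl1 to Gabarap was 0.329, 0.317 and 0.288 in IL-33 replicates 1, 2 and 3, against 0.278, 0.169 and 0.203 in PBS replicates 1, 2 and 3. The groups did not overlap. The ratio was 1.46-fold higher after IL-33 (0.55 on the log2 scale, exact two-sided permutation p = 0.1, the smallest possible, adjusted p = 0.15).

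Gabarapl2, whose protein GATE-16 also acts in Golgi transport, had normalized counts of 93.5, 52.3 and 52.5 in IL-33 replicates 1, 2 and 3, against 74.6, 74.9 and 108 in PBS replicates 1, 2 and 3. IL-33 replicate 1 lay inside the PBS range and IL-33 replicates 2 and 3 below it. The log2 fold change was −0.40 (SE 0.30, 95% interval −1.08 to 0.28, adjusted p = 0.315), −0.68 without IL-33 replicate 1 (adjusted p = 0.0316) and −1.43 with equal totals (adjusted p = 0.0396). Reads of this gene may be shared with copies, since 6 annotated processed pseudogenes are 90.8% to 99.4% identical to it over 314 to 353 bases.

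Map1lc3b, which encodes LC3B, the ATG8 protein most often used to count autophagosomes, had normalized counts of 637, 512 and 722 in IL-33 replicates 1, 2 and 3, against 725, 580 and 716 in PBS replicates 1, 2 and 3. The groups overlapped (log2 fold change −0.12, SE 0.19, 95% interval −0.55 to 0.32, adjusted p = 0.647). It was called lower with equal totals (−1.16) and with equal totals without Rn45s (−0.54). Map1lc3a, which encodes LC3A, was low, with normalized counts of 38.7, 67.7 and 40.7 in IL-33 replicates 1, 2 and 3, against 47.4, 45.8 and 39.8 in PBS replicates 1, 2 and 3. Its log2 fold change was 0.10 (SE 0.28, 95% interval −0.55 to 0.75, adjusted p = 0.806), on 24 to 63 reads per library. The ratio of Map1lc3b to Map1lc3a changed by −0.22 on the log2 scale (exact two-sided permutation p = 0.8, adjusted p = 0.8). In data simulated for this comparison over 10371 genes, 23.2% of 2-fold changes and 93.8% of 4-fold changes were called. There, only 99 genes were changed 2-fold and 97 changed 4-fold, against 31.9% of all tested genes called in the real fit. The adjustment was therefore stricter in the simulated data, and its rates do not carry over to the real fit.

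**Figure D2:**
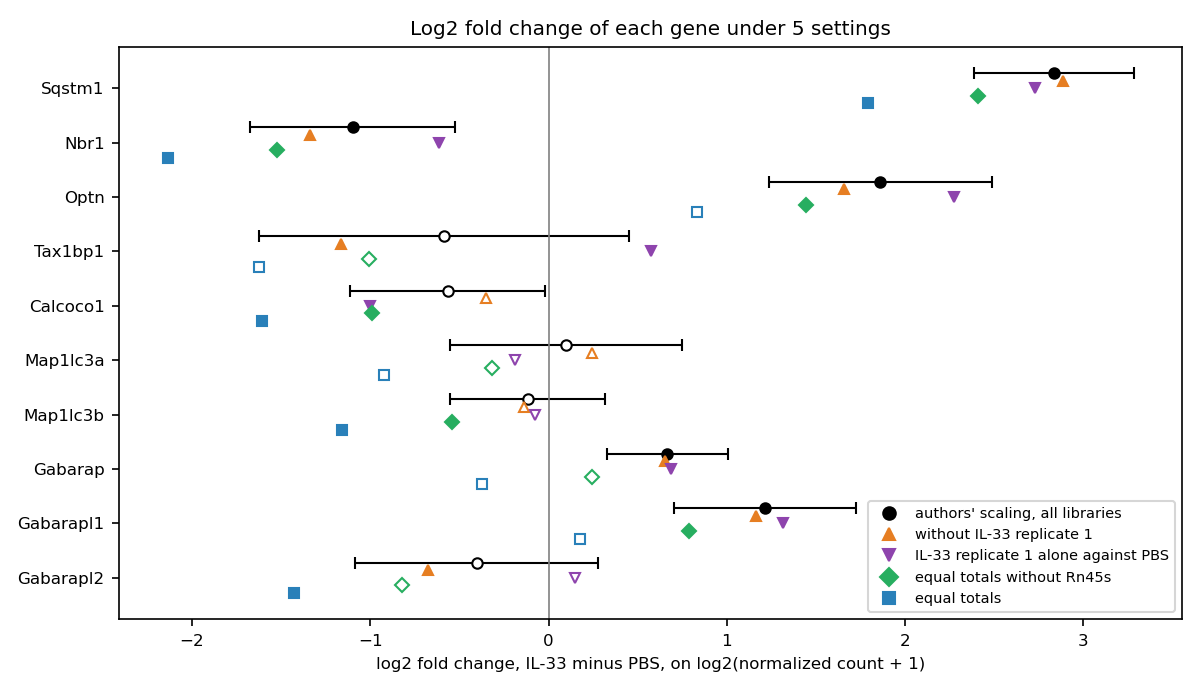
Log2 fold change (horizontal axis, IL-33 minus PBS) of each gene (vertical axis) as scaled by the authors, with its 95% limma interval as a bar, without IL-33 replicate 1, with IL-33 replicate 1 alone, and after scaling to equal totals with and without Rn45s. Filled symbols have an adjusted p under 0.05; Sqstm1 lies at 1.79 or higher in each setting, and Tax1bp1 lies at −1.16 without IL-33 replicate 1 and at 0.58 with it alone.

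The scaling moved all genes by a common amount. The median log2 fold change of all tested genes was −0.03 with the authors' factors, −1.08 with equal totals and −0.46 when totals were equalized leaving out Rn45s. Relative to that median, the log2 fold change of Sqstm1 was 2.87 in all 3 scalings. Relative values were 1.89 to 1.92 for Optn, 1.25 to 1.26 for Gabarapl1, 0.70 to 0.71 for Gabarap, −0.08 for Map1lc3b and −1.06 for Nbr1. Such agreement largely follows from scaling each library by a single factor. Under quantile normalization, relative values were 2.22 for Sqstm1, 2.01 for Optn and 1.07 for Gabarapl1. They were 0.26 for Gabarap, −0.33 for Map1lc3b and −1.29 for Nbr1.

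The calls among the 10 genes moved with the share of all genes called. Equal totals called 1 higher and 4 lower, beside 2.36% and 50.3% of all tested genes. Equal totals without Rn45s called 3 higher and 3 lower, beside 8.90% and 34.0%, and quantile normalization called 3 and 2, beside 15.5% and 16.5%. With the Rn45s share as a covariate 3 were higher and 0 lower, beside 7.11% and 4.88%. Sqstm1, Optn and Gabarapl1 were the 3 called higher in each of those last 3 fits.

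Leaving out IL-33 replicate 1 called 4 higher (the same 4 genes) and 3 lower (Nbr1, Tax1bp1 and Gabarapl2), beside 28% and 28.4% of all tested genes. Leaving out IL-33 replicate 2 called 3 and 0, beside 8.43% and 7.23%. IL-33 replicate 1 alone against PBS called 5 higher and 2 lower, beside 18.8% and 18.8%, but there the spread comes from the PBS libraries alone and the lone library is assumed to vary like them. The block on replicate number called 4 and 1, beside 15.4% and 12.3%.

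Levels of different genes were compared per exonic kilobase of the annotated gene. This length joins all annotated exons and can exceed that of any single transcript. For Tax1bp1 it was 9991 bases, against 3285 in its longest coding transcript, and for Gabarapl1 2013 against 1820. The order of genes and the shares below depend on this choice of length, and other lengths were not tested for the order. In IL-33 libraries Sqstm1 had 19761 ± 1251 normalized counts per kilobase, Gabarap 1362 ± 33.2 and Gabarapl1 388 ± 35.4. In PBS libraries Sqstm1 had 2814 ± 649, Gabarap 860 ± 78.9 and Gabarapl1 171 ± 50.2 (SD, n = 3 each). Below Gabarapl1, the IL-33 order ran from Tax1bp1 (93.9 ± 70.9) through Map1lc3b, Nbr1, Calcoco1, Optn and Map1lc3a to Gabarapl2 (28.4 ± 10.2), and each gene overlapped its next neighbour. The PBS order ran from Nbr1 (145 ± 6.17) through Tax1bp1, Map1lc3b, Calcoco1, Map1lc3a and Gabarapl2 to Optn (13.3 ± 1.98). There, neighbours overlapped for Gabarapl1 and Nbr1, Map1lc3b and Calcoco1, and Map1lc3a and Gabarapl2, but Optn lay below every other gene.

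Within the ATG8 family, Gabarap made up 71.6 ± 0.929% of the summed level per kilobase in IL-33 libraries and 72.0 ± 3.42% in PBS libraries. The share of Gabarapl1 was 20.4 ± 1.14% in IL-33 libraries and 14.2 ± 3.07% in PBS libraries, with no overlap between groups. The share of Map1lc3b was 4.38 ± 0.867% in IL-33 libraries and 7.53 ± 1.17% in PBS libraries. Map1lc3a and Gabarapl2 each stayed under 5% in every library. The shares of Map1lc3b, Map1lc3a and Gabarapl2 were each lower in every IL-33 library than in any PBS library, and only those of Gabarap overlapped. These shares do not depend on library scaling and were not tested. Within a library they add up to a fixed whole, so a rise of some genes lowers the shares of others. Map1lc3a itself averaged 49.0 ± 16.2 normalized counts after IL-33 and 44.3 ± 3.98 in PBS. Among the receptors, Sqstm1 made up 98.6 ± 0.544% of the summed level per kilobase in IL-33 libraries and 88.3 ± 2.63% in PBS libraries. The other receptors together had 376, 230 and 213 normalized counts per kilobase in IL-33 replicates 1, 2 and 3, against 353, 349 and 380 in PBS replicates 1, 2 and 3. IL-33 replicate 1 was thus within the PBS range for this sum, and IL-33 replicates 2 and 3 were below it.

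**Figure D3:**
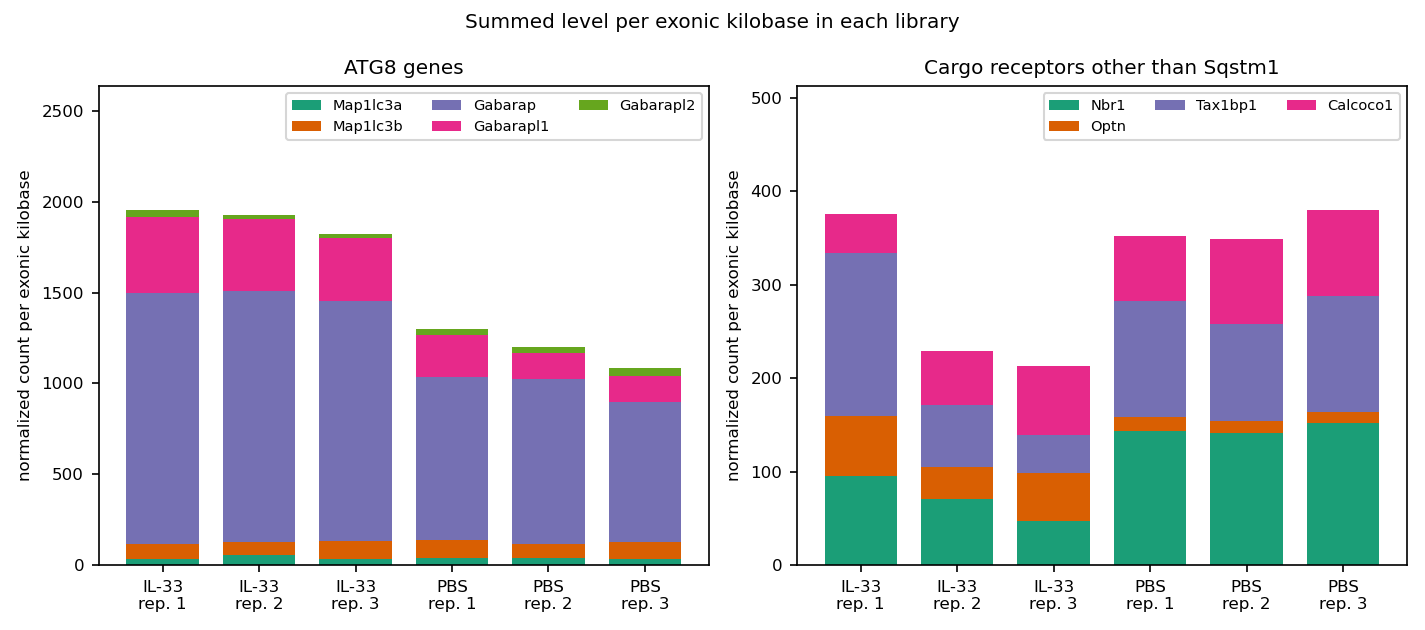
Summed normalized count per exonic kilobase (vertical axis from 0) in each library, IL-33 at the left and PBS at the right, split by gene in the stack; left panel, the 5 ATG8 genes, and right panel, the receptors other than Sqstm1. Gabarap is the largest ATG8 segment in every library, and the Nbr1 segment is smaller in every IL-33 library than in any PBS library.

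By a fixed measure, the root mean square difference of centred log2 values over the 6 libraries, the genes most like Sqstm1 among 7639 others with a mean of at least 50 were Nfkbie (0.08), Rab20 (0.12) and Lama5 (0.14). Nfkbie, which encodes the NF-kB inhibitor IkB-epsilon, averaged 1629 ± 163 after IL-33 and 238 ± 42.5 in PBS (SD, n = 3 each), a log2 fold change of 2.78. Those most like Gabarapl1 were Ppp1r15a (0.08), which encodes the stress-induced phosphatase subunit GADD34, the clock gene Per1 (0.10) and the gene model Gm11696 (0.11). Likeness here describes the pattern over these libraries only.

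The rest of the autophagy machinery was examined in 8 lists with 71 genes, of which 68 were tested. Of these, 15 were higher, 9 lower and 44 not called, with a median log2 fold change of 0.07, beside 17.4% higher, 14.4% lower and a median of −0.03 over all tested genes. Without IL-33 replicate 1, 24 were higher and 21 lower, beside 28% and 28.4% of all tested genes. Atg16l2, Tfe3, Vmp1 and Wdfy3 rose and Ccpg1 fell, and these 5 calls were the ones that held without each library in turn. With equal totals the calls of Vmp1 (0.69, adjusted p = 0.263) and Wdfy3 (0.57, adjusted p = 0.154) were lost.

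In the ULK1 initiation complex, which starts autophagosome formation, 1 of 5 genes was higher and 0 lower. The kinase gene Ulk1 had 1383, 2553 and 3520 in IL-33 replicates 1, 2 and 3, against 1021, 997 and 1067 in PBS replicates 1, 2 and 3 (log2 fold change 1.17, SE 0.31). It was not called with the Rn45s share as a covariate (0.48, adjusted p = 0.36) or with equal totals (0.13, adjusted p = 0.69), and was 1.54 without IL-33 replicate 1. In the VPS34 lipid kinase complexes, 0 of 8 were higher and 2 lower. These were Rubcn (listed as 1700021K19Rik), an inhibitor of the complex in most cells, at 49.6 ± 10.2 after IL-33 and 106 ± 16.6 in PBS (−1.10, SE 0.24), and the regulatory subunit gene Pik3r4 (−0.82, SE 0.25). Among 9 genes of membrane supply and WIPI proteins, 1 was higher and 2 lower. Vmp1, a scramblase of the endoplasmic reticulum, averaged 1834 ± 862 after IL-33 and 515 ± 76.6 in PBS (1.73, SE 0.32), while Wipi1 (−1.27, SE 0.27) and Wdr45 (−0.77, SE 0.23) fell. Of the exonic bases of Vmp1, 2.38% overlap the microRNA gene Mir21a on the same strand, so reads there may come from either gene.

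On the list for the coupling of ATG8 proteins to lipid, 2 of 6 genes tested were higher and 1 lower. Atg16l2, on the list as a relative of Atg16l1, averaged 563 ± 125 after IL-33 and 113 ± 34.1 in PBS (log2 fold change 2.33, SE 0.28, adjusted p = 0.00118). Atg3, the E2-like enzyme, had a log2 fold change of 1.32 (SE 0.41) and Atg7, the E1-like enzyme, of −0.58 (SE 0.15). Atg3 was called in 9 of 20 alternatives: it was 0.38 with the Rn45s share as a covariate (adjusted p = 0.592), 0.28 with equal totals (adjusted p = 0.487) and 1.78 without IL-33 replicate 1. Of the ATG4 proteases, which cut ATG8 proteins before coupling and release them afterwards, 0 of 3 tested were called, and Atg4d had the smallest p (0.64, adjusted p = 0.0617). Without IL-33 replicate 1, Atg4d was called higher (0.82, adjusted p = 0.0025).

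Among other receptors, 4 of 14 tested were higher and 1 lower. Retreg1 (listed as Fam134b) and Tex264, receptors for endoplasmic reticulum, had log2 fold changes of 1.74 (SE 0.37) and 1.17 (SE 0.32). Wdfy3, a scaffold that binds p62, averaged 386 ± 17.3 after IL-33 and 126 ± 13.7 in PBS (1.61, SE 0.18, adjusted p = 0.000785). Ccpg1, another endoplasmic reticulum receptor, averaged 1744 ± 124 after IL-33 and 4078 ± 566 in PBS (−1.22, SE 0.16, adjusted p = 0.00186). Other genes overlap 55.8% of the exonic bases of Ccpg1, namely Pigb on the opposite strand and Gm44503 on the same strand. Reads there may come from any of these genes, and their part in the fall was not tested. The fourth receptor gene called higher was Phb2 (0.61), named after its value was seen.

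Of 13 genes for fusion with lysosomes, 4 were higher and 3 lower. Vps18 (0.90, SE 0.22), Plekhm1 (0.84, SE 0.27) and Vps16 (0.60, SE 0.19) rose, while Vps41 (−1.32, SE 0.32), the autophagosome SNARE gene Stx17 (−1.07, SE 0.25) and Epg5 (−0.85, SE 0.18) fell, all as log2 fold changes; those of Vps18, Plekhm1 and Vps16 turned to −0.14, −0.20 and −0.44 when libraries were scaled to equal totals. The Plekhm1 groups overlapped, with IL-33 replicate 1 at 1896 and PBS replicate 1 at 1903, and its call (adjusted p = 0.0477) held in 7 of 20 alternatives. With the replicate block, 1 of the 13 was higher and 3 lower. Of 10 kinases and transcription factors of the pathway, 3 were higher and 0 lower. Tfe3, a transcription factor of lysosome and autophagy genes, averaged 638 ± 86.5 after IL-33 and 170 ± 19.6 in PBS (1.90, SE 0.19, adjusted p = 0.000496). Foxo3 had 2226, 6373 and 10120 in IL-33 replicates 1, 2 and 3, against 1981, 2010 and 1496 in PBS replicates 1, 2 and 3. IL-33 replicate 1 was close to the PBS libraries. Its log2 fold change was 1.53 (SE 0.48), but 0.20 with the Rn45s share as a covariate (adjusted p = 0.758), 0.30 with IL-33 replicate 1 alone (adjusted p = 0.217) and 2.15 without IL-33 replicate 1. Keap1, which encodes the NRF2 inhibitor that p62 binds, had a log2 fold change of 0.54 (SE 0.16), or −0.50 with equal totals.

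With the Rn45s share as a covariate, the pathway calls were those of Vmp1, Atg16l2, Wdfy3 and Tfe3 (higher) and of Rubcn and Ccpg1 (lower). The calls of Pik3r4, Atg3, Phb2, Tex264, Plekhm1, Vps16, Foxo3 and Keap1 were lost without any 1 library other than IL-33 replicate 1 (adjusted p of 0.053 to 0.176). Those of Ulk1, Wdr45, Atg7 and Ykt6 (the fourth fusion gene called higher, named after its value was seen) were lost without IL-33 replicate 2 or any 1 PBS library (0.0628 to 0.136). Those of Retreg1, Stx17, Epg5, Vps18 and Vps41 were lost when IL-33 replicate 2 or either of PBS replicates 2 and 3 was left out (0.0531 to 0.0898), and those of Rubcn and Wipi1 without PBS replicate 2 or 3 (0.0591 to 0.0812). Fits without a library have fewer libraries to estimate the spread.

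**Figure D4:**
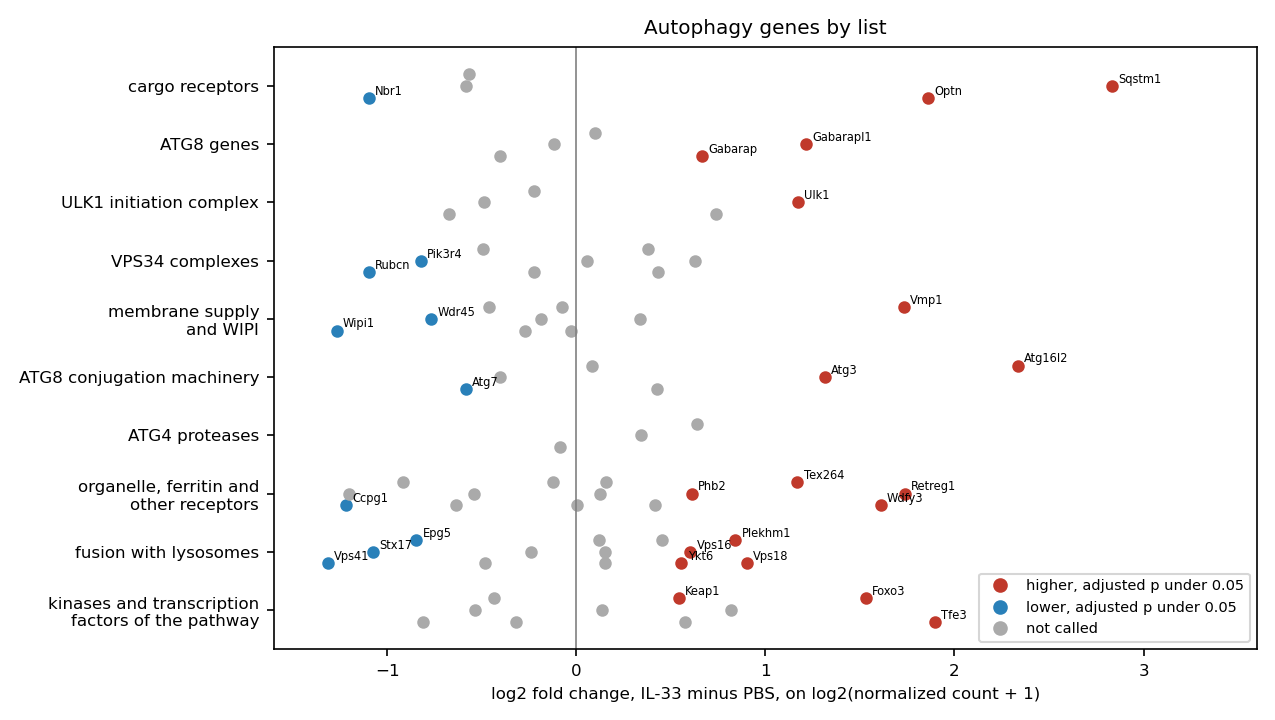
Log2 fold change (horizontal axis, IL-33 minus PBS) of every tested autophagy gene, one point a gene, with the lists down the vertical axis; red points are higher and blue points lower at an adjusted p under 0.05, and grey points were not called. Sqstm1 at 2.83 and Atg16l2 at 2.33 lie farthest to the right, and most lists hold points on both sides of 0.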

How the data were processed

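Values came as normalized counts in a table deposited by the authors for 6 libraries: a signal equal to the read count of a gene over a factor of its library. Per the labels, libraries were directional and came from rRNA-depleted total RNA. The submitters' processing notes name mm10 with HISAT2, HTSeq and DESeq2. For versions, annotation and strand setting, the sources used here give nothing. Reads were recovered as multiples of each library's smallest value, and 100% of values were whole within 0.1 of a read. Library totals were 8218303 to 10785521 reads.

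Groups were compared with limma 3.58.1 in R 4.3.3 (mean-variance trend) on log2(normalized count + 1), for genes with at least 10 in at least 3 libraries, two-sided, with calls at an adjusted p under 0.05. On this scale, changes of low genes are understated. The fit was tested on simulated data. edgeR 4.0.16 quasi-likelihood and DESeq2 1.42.0 served as alternatives on recovered reads, and called 1909 higher and 1479 lower genes, and 2238 and 1624. Other alternatives were pseudocounts, filters, scalings, the Rn45s share as a covariate, the replicate number as a block, and each library left out. Within-library ratios were tested by exact permutation.

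Gene spans and exonic lengths are from GENCODE vM21 (GRCm38), and promoter windows from RefSeq. The genes, lists and motifs were chosen with earlier results of these data known. Named pathway genes are up to 3 called per list and direction with the largest change or, where none was called, the 1 with the smallest p. The Wilson intervals of read shares cover counting error only, while the limma intervals reflect the spread between libraries. Reads carry no molecular identifiers.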

Additional observations from a re-analysis of the deposited data

How the results depend on the processing

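The increases of Sqstm1, Optn and Gabarapl1 held without any 1 library and with edgeR and DESeq2; the increase of Gabarap and the decrease of Nbr1 were each lost without some libraries. Map1lc3a rested on 24 to 63 reads a library.

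Scaling to equal totals called 257 genes higher and 5470 lower, against 1837 and 1522 as scaled by the authors. Of the 10 autophagy receptor and ATG8 genes it called 1 higher and 4 lower, against 4 and 1, and of the other autophagy genes 2 higher and 31 lower, against 15 and 9. Equal totals without Rn45s called 941 and 3595 genes, 3 lower of the 10, and 5 higher and 25 lower of the others. Both scalings shift the median of all genes below 0. Quantile normalization called 2 lower of the 10, and 6 higher and 14 lower of the others. Without the mean-variance trend 9 of the others were higher, beside 15.1% of all tested genes. With the Rn45s share as a covariate 750 genes were higher and 515 lower, 0 of the 10 were lower, and 4 and 2 of the others were called. IL-33 replicate 1 alone called 2 lower of the 10. The cause was not tested.

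Leaving out 1 library gave 695 to 2910 higher and 318 to 2950 lower genes, 3 to 4 higher and 0 to 3 lower of the 10, and 4 to 24 higher and 1 to 21 lower of the others, with the largest counts without IL-33 replicate 1. The log2 ratio of Map1lc3b to Map1lc3a ranged from −0.44 to 0.17 over these fits, the highest without IL-33 replicate 2, against −0.22 with all libraries.

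Gabarap turned to −0.37, Vps18 to −0.14, Plekhm1 to −0.20, Vps16 to −0.44 and Keap1 to −0.50 (log2 fold change) with equal totals, and Tax1bp1 to 0.58 with IL-33 replicate 1 alone. Without division by length, the IL-33 minus PBS difference in share was 19.9 percentage points for Sqstm1, −7.69 for Nbr1, −8.40 for Tax1bp1, −3.64 for Calcoco1, −0.40 for Map1lc3a, −9.20 for Map1lc3b and 4.23 for Gabarap, against 10.3, −4.36, −3.30, −2.49, −0.96, −3.16 and −0.42 per kilobase. This follows from the unequal gene lengths.

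The labels do not say whether the shared replicate numbers pair the libraries. Deviations of same-numbered libraries from their group means correlated at 0.046, 0.242 and −0.164 across genes for numbers 1, 2 and 3. Libraries with different numbers gave −0.281 to 0.237. Deviations within a group of 3 depend on one another, so these correlations cannot decide whether libraries were paired. With a replicate block, 1620 genes were higher and 1298 lower, and 4 of the 10 were higher and 1 lower. Of the other autophagy genes 10 were higher and 8 lower, against 15 and 9, and Plekhm1, Vps16, Keap1, Pik3r4 and Wdr45 were among those that lost their calls. The block left the ratio of Sqstm1 to Nbr1 at 3.93 (exact p = 0.25, the smallest that 3 pairs allow).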
